A study of Mus musculus with 8 samples.

Results

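Organic anion transporters of the Slc22 family were examined in mouse liver with and without the transcription factors STAT5a and STAT5b in hepatocytes. Taken by gene symbol from a list drawn up with earlier results of these data known, the members were Slc22a7, Slc22a26, Slc22a27, Slc22a28, Slc22a29 and Slc22a30, and all 6 were among the 24197 genes listed. Knockout mice carried an albumin promoter-driven Cre transgene (FVB/N) and a floxed Stat5a-Stat5b locus (C57BL/6 x 129J), so that deletion falls in cells in which the albumin promoter is active and other liver cells keep both genes. Controls carried the floxed locus. Both sexes were studied at 8 to 12 weeks of age, and each of the 4 groups (control female, knockout female, control male, knockout male) had 2 libraries of ribosome-depleted, stranded total RNA. Each library came from a pool of livers, the number of animals per pool not being given, so p-values reflect pools and not single animals. Library titles also carry a code of unstated meaning, which is shared by all control female libraries, differs from that of all knockout female libraries, and therefore cannot be told apart from genotype in females. Control male libraries share a further code, and the knockout male libraries carry that code or the control female code.

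Transporters of this family are membrane proteins that move organic anions, cations and zwitterions across the plasma membrane, and in liver and kidney they take up drugs, metabolites and hormone conjugates. Slc22a7, also called OAT2, is an organic anion transporter of the hepatocyte membrane that faces the blood. Slc22a26 to Slc22a30 belong to a rodent-specific expansion of the organic anion branch, and their substrates are less well defined. STAT5 proteins carry the growth hormone signal in hepatocytes, and the sex difference in the rhythm of growth hormone release is known to set many sex differences of liver gene expression.

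Expression was given as FPKM, reads scaled to gene length and to the library total. The deposited values are group means, from which the reads of each library were recovered. The libraries of a group could be told apart by their totals alone and are called deeper and shallower. Library totals ran from 6192515 (the shallower control male library) to 34651386. Both targeted genes were lower in the knockouts, Stat5b lying between 0.684 and 1.77 FPKM in knockout and between 1.95 and 3.88 FPKM in control libraries, with no overlap, and Stat5a between 0.120 and 0.499 FPKM in knockout and between 0.600 and 1.16 FPKM in control libraries. The highest knockout value of both genes was that of the deeper knockout female library, the shallower having 1.11 FPKM of Stat5b and 0.120 FPKM of Stat5a. Albumin was between 9998 and 15800 FPKM, and 7 of 10 kidney tubule markers had 0 reads in every library.

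Slc22a26 to Slc22a30 lie next to each other in a block of 623.1 kb (chr19:7856472-8479595, mm9) in which the deposited table lists 5 genes, all of them members. On mm9 Slc22a26 spans 7856472 to 7877157, Slc22a27 spans 7938878 to 8040517, Slc22a28 spans 8136698 to 8206472, Slc22a29 spans 8234657 to 8293329, and Slc22a30 spans 8410112 to 8479595. Slc22a7 is on chromosome 17 (46569133 to 46575426, mm9, NM_144856). Coding sequences of Slc22a28 (NM_001013820) and Slc22a30 (NM_177002) were identical at 1639 of 1659 aligned bases (98.8%), and those of Slc22a27 (NM_134256) and Slc22a29 (NM_172776) at 1611 of 1656 (97.3%). Slc22a26 (NM_146232) was 74.6% to 75.2% identical to these 4 genes. The promoters did not pair in the same way as the coding sequences. Those of Slc22a28 and Slc22a30 were 98.0% identical, whereas that of Slc22a29 was 60.5% identical to the promoter of Slc22a27 and 79.3% identical to that of Slc22a30. Promoters are the RefSeq sequences of GRCm38.p6, 250 bases before to 50 bases after the annotated start, read 5′ to 3′ on the minus strand. Shown here are the near-identical pair, the promoter of Slc22a29 that resembles them, and that of Slc22a26, whose levels ranged from 0.161 to 41.6 FPKM. Capitals in the last 3 sequences mark the longest run that these promoters share, 22 bases. It was picked from these 3 promoters, and they are the only holders among the 32851 mouse promoters searched (0.009%). Capitals in Slc22a26 mark its match to TTCNNNGAA, the palindrome bound by STAT5 and by the repressor BCL6.
Slc22a26 (chr19:7802618-7802917): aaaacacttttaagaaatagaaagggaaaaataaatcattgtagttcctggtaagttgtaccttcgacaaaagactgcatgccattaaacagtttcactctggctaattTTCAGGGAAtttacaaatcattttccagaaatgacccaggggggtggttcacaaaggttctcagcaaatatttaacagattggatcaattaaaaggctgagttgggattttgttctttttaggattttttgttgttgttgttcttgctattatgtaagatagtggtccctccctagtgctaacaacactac
Slc22a28 (chr19:8131933-8132232): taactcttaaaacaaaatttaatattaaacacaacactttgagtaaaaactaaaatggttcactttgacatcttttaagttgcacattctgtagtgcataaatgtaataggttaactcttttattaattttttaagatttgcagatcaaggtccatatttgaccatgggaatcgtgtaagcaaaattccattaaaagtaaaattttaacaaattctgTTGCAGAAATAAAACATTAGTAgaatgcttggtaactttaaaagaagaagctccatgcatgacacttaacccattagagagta
Slc22a30 (chr19:8405056-8405355): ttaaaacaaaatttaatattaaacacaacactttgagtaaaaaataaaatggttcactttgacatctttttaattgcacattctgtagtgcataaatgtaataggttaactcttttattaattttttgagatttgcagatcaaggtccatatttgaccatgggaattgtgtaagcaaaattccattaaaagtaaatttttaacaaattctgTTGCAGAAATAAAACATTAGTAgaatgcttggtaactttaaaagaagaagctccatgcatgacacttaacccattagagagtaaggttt
Slc22a29 (chr19:8218851-8219150): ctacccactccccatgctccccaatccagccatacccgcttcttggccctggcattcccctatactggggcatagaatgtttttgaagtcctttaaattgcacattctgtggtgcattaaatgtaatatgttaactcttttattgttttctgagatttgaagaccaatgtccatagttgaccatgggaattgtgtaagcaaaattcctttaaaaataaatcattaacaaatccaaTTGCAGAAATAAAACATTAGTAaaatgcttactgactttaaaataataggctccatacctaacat

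Letters of 4 motifs were searched on both strands of the 5 promoters that were in the RefSeq table, which has those of the chromosome 19 members. TTCNNNGAA matched the Slc22a26 promoter at base 110 and none of the other 4, and 8.298% of all promoters searched hold it. TTGCNNAA, a form of the C/EBP motif, matched in Slc22a28, Slc22a29 and Slc22a30 at the first bases of the shared run, which it overlaps, and occurs in 10.797% of promoters. GTTAATNAT, a form of the HNF1 motif, matched in Slc22a29 (0.801% of promoters), and CAAAGTNCA, a form of the HNF4 motif, matched in none of the 5 (1.412% of promoters). These matches describe letters within 300 bases and are not measured binding sites.

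**Figure D1:**
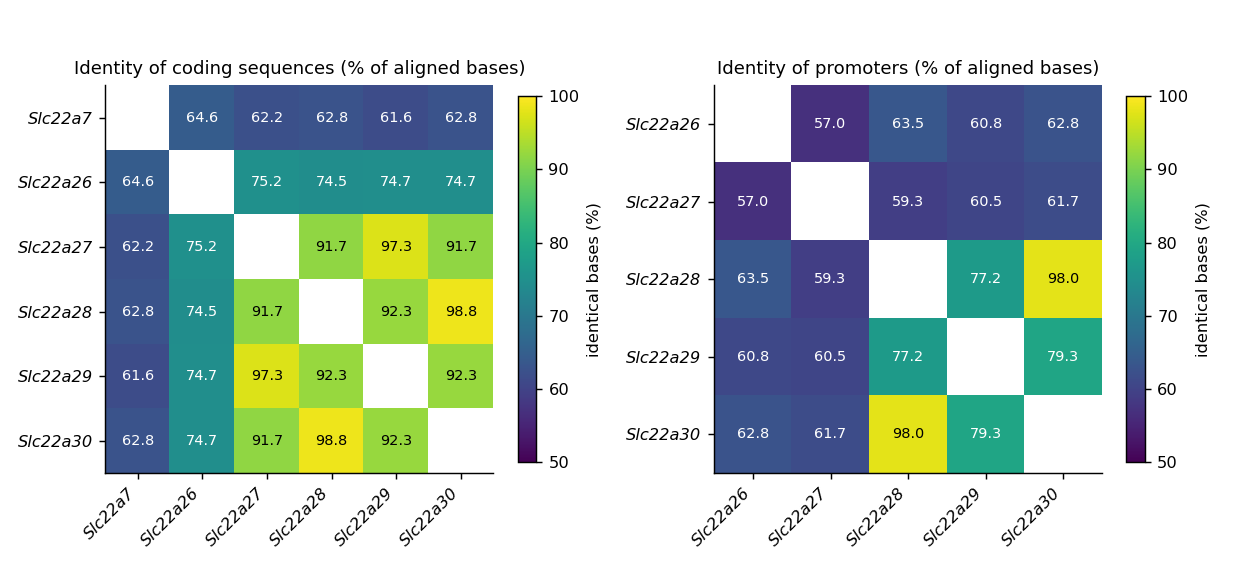
Identity between members as a percentage of aligned bases, for coding sequences (left, 6 genes) and promoters (right, 5 genes). Slc22a28 and Slc22a30 are near-identical in both panels (98.8% and 98.0%), while Slc22a27 and Slc22a29 are near-identical in coding sequence (97.3%) and not in the promoter (60.5%).

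The near-identity bears on the counts. How reads that map to several genes were counted is not given in the sources used here. Of all 100-base windows, 37.0% in the Slc22a28 transcript and 32.9% in that of Slc22a30 also occur in the transcript of another gene, against 7.65% in Slc22a27, 8.43% in Slc22a29, 0.89% in Slc22a26 and 0% in Slc22a7. For 50-base windows the shares were 53.9% in Slc22a28, 51.8% in Slc22a30, 30.5% in both Slc22a27 and Slc22a29, 9.5% in Slc22a26 and 0% in Slc22a7, and no read length was given in the sources used. The split of reads between Slc22a28 and Slc22a30, and that between Slc22a27 and Slc22a29, are therefore uncertain.

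Slc22a7 was higher without STAT5 in both sexes. In control females it was at 4.299 FPKM in the deeper and 2.98 FPKM in the shallower library, and in knockout females at 16.2 and 9.31 FPKM. In control males it was at 7.25 and 8.53 FPKM, and in knockout males at 14.4 and 18.4 FPKM. Every knockout library lay above every control library of either sex. Mean FPKM was 3.64 ± 0.932 for control females, 7.89 ± 0.906 for control males, 12.8 ± 4.91 for knockout females and 16.4 ± 2.79 for knockout males (SD, n = 2), and the knockout groups overlapped each other. Slc22a7 is given by the authors' deposited table as 2.11-fold higher in knockout than control males (edgeR adjusted p 0.000293) and 3.17-fold higher in knockout than control females (edgeR adjusted p 2.9e-07). Its sex difference, 1.93-fold higher in control males by the authors' deposited table (edgeR adjusted p 0.0036), was 1.30-fold in knockouts and not called (adjusted p 1). The change in this sex difference was itself not called by limma on log2(FPKM + 1) (log2 difference -0.57, SE 0.36, adjusted p 0.819).

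**Figure D2:**
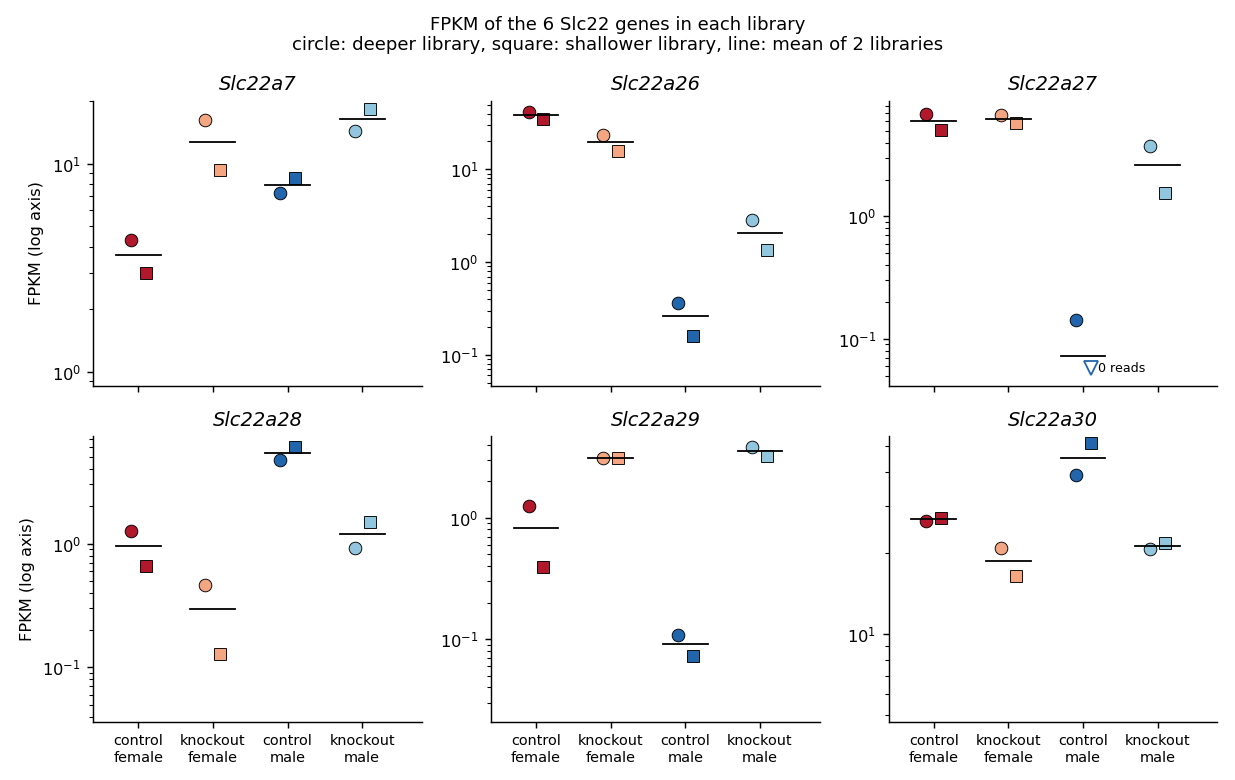
FPKM of the 6 genes in each of the 8 libraries (log axis, its range differing between panels), with the deeper library of a group as a circle, the shallower as a square and their mean as a line. Slc22a26, Slc22a27 and Slc22a29 are lowest in the control male libraries, Slc22a28 and Slc22a30 are highest there, and the open triangle marks the control male library with 0 reads of Slc22a27.

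Slc22a26 was a transcript of female liver that rose in knockout males and fell in knockout females in the authors' test. Control females had 41.6 and 34.8 FPKM and knockout females 23.6 and 15.7 FPKM, naming the deeper library first here and below. Control males had 0.359 FPKM (21 reads) and 0.161 FPKM (2 reads), and knockout males 2.82 and 1.34 FPKM. No groups overlapped, and the order from high to low was control female, knockout female, knockout male and control male. The value of the shallower control male library was under the 0.242 FPKM that 3 reads stand for there. By the authors' deposited table, Slc22a26 was 127-fold lower in control males than in control females (edgeR adjusted p 3.47e-92) and 9.15-fold lower in knockout males than in knockout females (edgeR adjusted p 1.37e-17). Knockout changed it in opposite directions in the authors' deposited table, 6.68-fold higher in males (edgeR adjusted p 2.95e-06) and 2.14-fold lower in females (edgeR adjusted p 0.000138). By voom the male knockout log2 change of 2.58 became 3.37 without the deeper control male library, 1.99 without the deeper and 3.17 without the shallower knockout male library. The voom log2 change between control sexes, -6.99, became -7.78 without the deeper control male library, and that between knockout sexes, -3.28, became -3.88 without the deeper and -2.69 without the shallower knockout male library. The male increase left it far below the female level, since the highest knockout male library was at 2.82 FPKM and the lowest knockout female library at 15.7 FPKM.

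Slc22a27, the next gene of the block, had the same male pattern and no call in females. Control females had 6.92 and 5.04 FPKM, and knockout females 6.79 and 5.78 FPKM, and these groups overlapped. Control males had 0.144 FPKM (9 reads) and 0 reads, and knockout males 3.74 and 1.54 FPKM. Mean FPKM was 5.98 ± 1.33 for control females, 6.29 ± 0.708 for knockout females, 0.0718 ± 0.102 for control males and 2.64 ± 1.55 for knockout males (SD, n = 2). In the authors' deposited table the gene was 53.6-fold lower in control males than control females (edgeR adjusted p 1.2e-45), and 23.1-fold higher in knockout than control males (edgeR adjusted p 9.57e-12). The female knockout ratio in the authors' deposited table was 1.05-fold lower (adjusted p 1), although the mean FPKM was slightly higher in knockouts. Among knockouts, the sex difference by the authors' deposited table was 2.30-fold, lower in males (edgeR adjusted p 0.0451). By voom the male knockout log2 change of 4.59 became 6.10 when the deeper control male library was left out, 3.91 when the shallower was, and 3.93 and 5.35 without the deeper and shallower knockout male library. The voom log2 change between control sexes, -6.04, became -7.55 and -5.36 without those control male libraries, and that between knockout sexes, -1.36, became -2.06 and -0.67 without those knockout male libraries.

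Slc22a29 was higher in knockouts of both sexes. It was at 1.25 and 0.391 FPKM in control females and at 3.10 and 3.12 FPKM in knockout females. Control males had 0.109 FPKM (7 reads) and 0.0731 FPKM (1 read), and knockout males 3.83 and 3.19 FPKM. All 4 knockout libraries lay within 3.10 to 3.83 FPKM, above every control library. According to the authors' deposited table the increase was 32.9-fold in males (edgeR adjusted p 2.44e-26) and 3.20-fold in females (edgeR adjusted p 3.64e-05). The voom log2 change in females, 1.68, became 2.76 without the deeper control female library, and that between control sexes went from -3.03 to -1.96. Control males were 8.81-fold below control females in the authors' deposited table (edgeR adjusted p 0.000366), whereas the knockout sexes differed 1.16-fold and were not called (adjusted p 1). This change in the sex difference was not called by limma on log2(FPKM + 1) (log2 difference 0.83, SE 0.29, adjusted p 0.819). The male ratios of Slc22a27 and Slc22a29 rest on 9 reads or fewer in each control male library, so their size is imprecise.

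Slc22a28 and Slc22a30 were the members that were highest in control males and fell there in the knockout. Slc22a28 had 4.69 and 6.04 FPKM in control males and 0.913 and 1.49 FPKM in knockout males. It had 1.25 and 0.664 FPKM in control females and 0.459 and 0.127 FPKM in knockout females, the latter from 28 and 6 reads. Knockout males and control females overlapped, and all other neighbours in the order of levels were separate. Decreases in the authors' deposited table were 4.37-fold in males (edgeR adjusted p 5.36e-12) and 3.54-fold in females (edgeR adjusted p 0.00801). The voom log2 change in females, -2.06, became -3.04 without the deeper and -1.29 without the shallower knockout female library, and that between knockout sexes, 2.13, became 3.11 and 1.36. The male level exceeded the female level 4.72-fold in controls (edgeR adjusted p 6.01e-14) and 3.97-fold in knockouts (edgeR adjusted p 0.00162), both in the authors' deposited table.

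Slc22a30 was the most abundant member in male liver. Control males had 39.0 and 51.4 FPKM and knockout males 20.8 and 21.9 FPKM. Control females had 26.4 and 27.0 FPKM and knockout females 20.96 and 16.5 FPKM. Both control male libraries were above all others, and the knockout sexes overlapped. Per the authors' deposited table it fell 2.07-fold in knockout males (edgeR adjusted p 0.000154). The female ratio in the authors' deposited table was 1.57-fold lower and just missed the threshold (edgeR adjusted p 0.0517), with both knockout libraries under both control libraries. Its sex difference was not called in controls (1.52-fold higher in males, adjusted p 0.197) or in knockouts (1.16-fold, adjusted p 1) in the authors' deposited table.

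**Figure D3:**
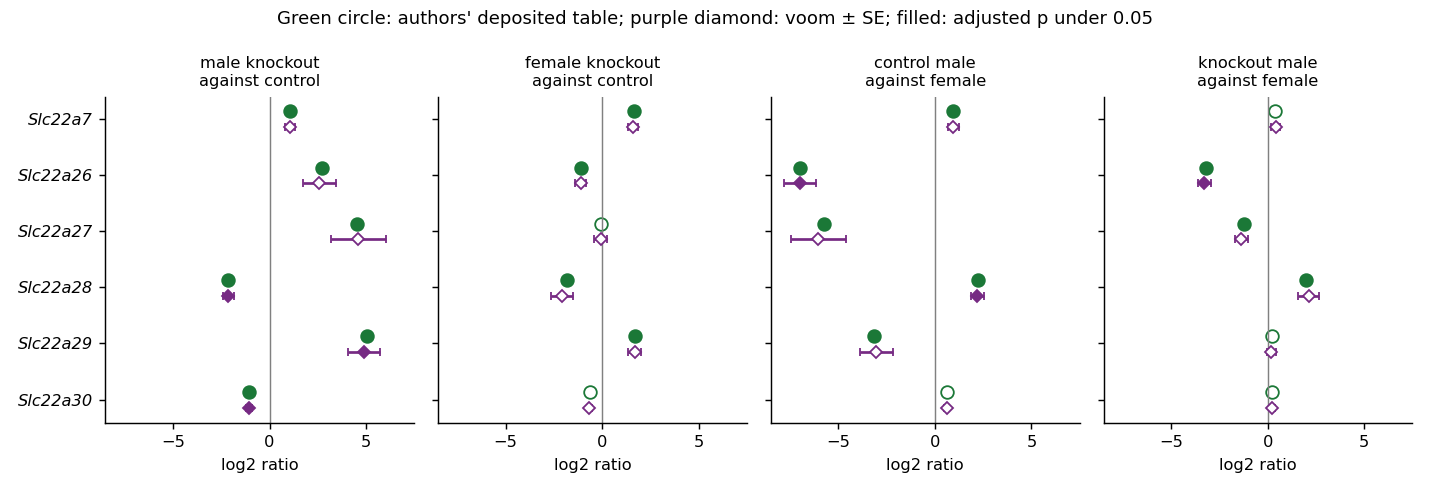
Log2 ratio of each member in the 4 comparisons, with the ratio in the authors' deposited table as a circle and the voom estimate ± SE from the recovered libraries as a diamond, filled where the adjusted p was under 0.05. Both estimates lie close together for every member, while fewer diamonds than circles are filled.

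Counted over the members, 6 of 6 were called in knockout against control males in the authors' deposited table (adjusted p under 0.05), 4 higher and 2 lower, where 2.18% of all listed genes were called (1.39% higher and 0.793% lower). In knockout against control females 4 of 6 were called, 2 higher (Slc22a7, Slc22a29) and 2 lower (Slc22a26, Slc22a28), against 1.55% of all genes there (1.04% higher and 0.508% lower). Between control males and females 5 of 6 were called, 2 higher and 3 lower in males, against 1.47% (0.686% higher and 0.785% lower). Between knockout males and females the count was 3 of 6, 1 higher and 2 lower in males, against 1.01% (0.533% higher and 0.479% lower). These shares are of all 24197 listed genes, of which 6193 had 0 reads in every group and could not be called. Median log2 ratios of the members were 1.91, -0.36, -1.27 and 0.21 in this order of comparisons, and those of the 18004 genes with reads were 0.02, 0.00, -0.02 and 0.00. These comparisons share control or knockout libraries with each other. Libraries of the groups did not overlap for 6, 5, 6 and 4 of the 6 members, where 39.7%, 49.0%, 45.3% and 37.5% of the 12980 genes with enough reads did not overlap.

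Fewer members passed in the refits of the recovered libraries, which differ from the authors' test in model, filter and scaling. Limma on log2(FPKM + 1) called 4 of 6 in knockout against control males (1.29% of genes called), 0 of 6 in females (0.247%, with 5 of 6 and 10.6% of genes at an unadjusted p under 0.05), 3 of 6 between control sexes (0.924%) and 1 of 6 between knockout sexes (0.339%). With limma voom on the recovered reads, Slc22a28 (log2 change -2.14, SE 0.29, adjusted p 0.0113), Slc22a29 (4.90, SE 0.82, adjusted p 0.0261) and Slc22a30 (-1.06, SE 0.14, adjusted p 0.00946) passed in males, where 1.52% of genes were called. Slc22a7 (1.07, SE 0.26, adjusted p 0.0942), Slc22a26 (2.58, SE 0.85, adjusted p 0.214) and Slc22a27 (4.59, SE 1.42, adjusted p 0.188) did not. In females voom called 0 of 6 members (0.354% of genes), and 5 of 6 had an unadjusted p under 0.05 (9.38% of genes), the lowest adjusted p being 0.0602 for Slc22a7 (1.58, SE 0.27). Between the sexes voom called Slc22a26 in controls (log2 change -6.99, SE 0.83, adjusted p 0.00713) and in knockouts (-3.28, SE 0.33, adjusted p 0.00421), and Slc22a28 in controls (2.203, SE 0.34, adjusted p 0.0229), where 0.763% of genes were called in controls and 0.385% in knockouts.

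Whether the knockout change differed between the sexes was tested with limma on log2(FPKM + 1), and 0 of 6 members passed, where 0.0154% of genes did. Slc22a26 had the lowest p of the members, and its log2 change was 2.198 higher in males than in females on this scale (SE 0.37), with an unadjusted p of 0.000277 and an adjusted p of 0.258 in limma. Slc22a27 followed with 1.63 (SE 0.38, unadjusted limma p 0.00257, adjusted p 0.524). By voom the differences were 3.71 for Slc22a26 and 4.67 for Slc22a27, so their order in size depends on the scale. At an unadjusted p under 0.05, the limma test passed 4 of 6 members, also including Slc22a28 (-0.94, SE 0.29) and Slc22a29 (0.83, SE 0.29), where 5.76% of genes passed. Both sizes depend on the scale too. Slc22a28 had a difference of -0.07 (SE 0.64) by voom, and Slc22a29 one of 3.23 (SE 0.89). Voom called 0 of 6, with 3 of 6 at an unadjusted p under 0.05, where 5.1% of genes passed.

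The make-up of the 6 transcripts changed more visibly than their sum. Summed over the members, control females had 81.8 and 70.9 FPKM, knockout females 71.1 and 50.5, control males 51.5 and 66.2, and knockout males 46.5 and 47.8. The share of Slc22a26 was 50.9% and 49.1% for control females, 33.1% and 31.04% for knockout females, 0.698% and 0.243% for control males, and 6.06% and 2.79% for knockout males. Slc22a30 made up 75.6% and 77.7% in control males and 44.7% and 45.8% in knockout males. Slc22a7 took 14.1% and 12.9% of the sum in control males against 31% and 38.4% in knockout males, and 5.26% and 4.204% in control females against 22.9% and 18.4% in knockout females.

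**Figure D4:**
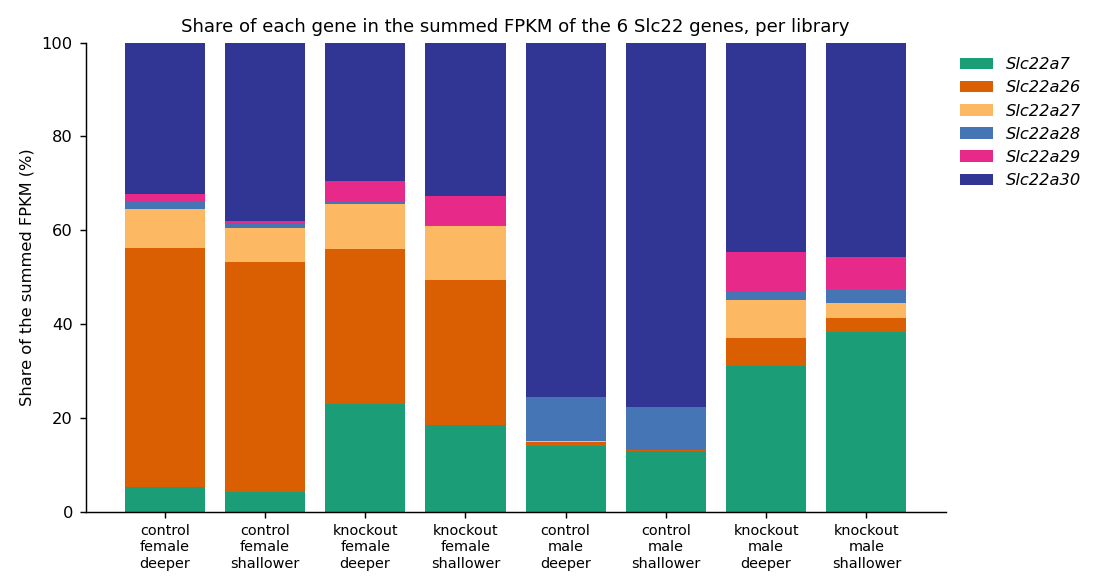
Share of each member in the summed FPKM of the 6 members (percent), for the 8 libraries. Slc22a26 and Slc22a30 fill most of the control female bars, Slc22a30 takes 75.6% and 77.7% of the control male bars, and Slc22a7 has a larger share in knockout than in control bars of the same sex.

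Within the near-identical pairs the ratio of levels was not constant. Slc22a28 stood to Slc22a30 as 0.1204 and 0.118 for control males, 0.0439 and 0.0679 for knockout males, 0.0474 and 0.0246 for control females, and 0.0219 and 0.00771 for knockout females. Both control male libraries had the highest values. Slc22a27 exceeded Slc22a29 5.52-fold and 12.9-fold in control females and 2.19-fold and 1.86-fold in knockout females, so the female groups were separate. In knockout males it was at 0.977 and 0.484 times the level of Slc22a29, and in control males the ratio was 1.32 in the deeper library and had no Slc22a27 reads in the shallower. These ratios carry the uncertainty in read assignment given above.

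**Figure D5:**
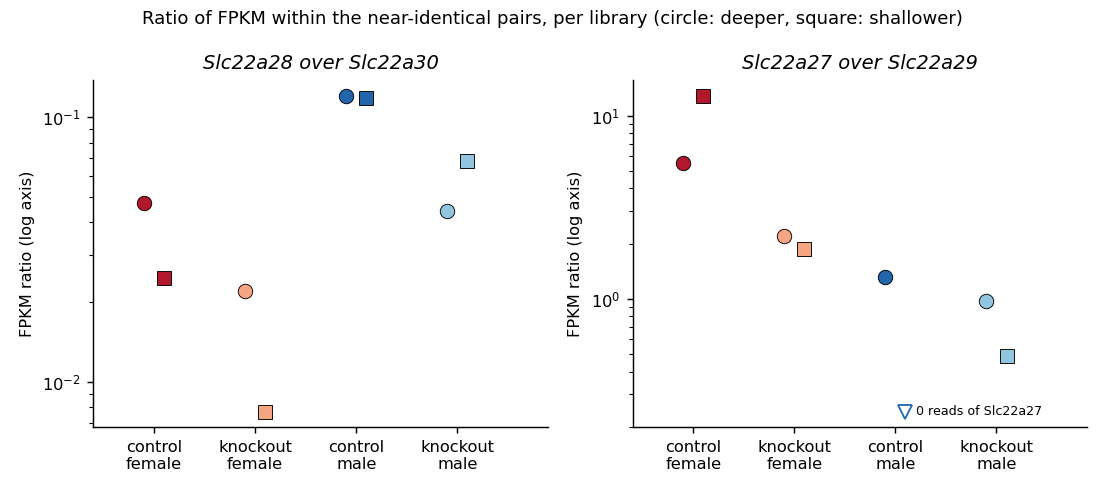
Ratio of FPKM within the pairs with near-identical coding sequence, per library (log axis; circle deeper, square shallower). Slc22a28 over Slc22a30 was highest in control males (0.1204 and 0.118), and Slc22a27 over Slc22a29 was highest in control females (5.52 and 12.9); the open triangle marks the library with 0 reads of Slc22a27.

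Levels changed abruptly at the edges of the chromosome 19 block. On its lower-coordinate side Slc22a19, and on the other side Slc22a8 and Slc22a6, which encode the kidney organic anion transporters OAT3 and OAT1, had at most 3 reads in any library. Inside the block, the 3 genes that were lower in control males than control females (Slc22a26, Slc22a27, Slc22a29) and the 2 with the highest level in control males (Slc22a28, Slc22a30) were interleaved, Slc22a28 lying between Slc22a27 and Slc22a29.

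Among 8 other members of the family, the organic cation and carnitine transporters, 1 was called in each knockout comparison of the authors' deposited table, both times Slc22a5, the carnitine transporter OCTN2. Its mean FPKM was 2.54 ± 0.233 for control against 4.91 ± 1.11 for knockout males, and 2.45 ± 0.312 for control against 7.01 ± 0.460 for knockout females (SD, n = 2). It is given in the authors' deposited table as 1.95-fold (edgeR adjusted p 0.00431) and 2.58-fold higher (edgeR adjusted p 1.37e-09), and voom called it in both sexes. None of the 7 other organic anion members listed was called in any of the 4 comparisons in the authors' deposited table. They had at most 3 reads in any library, too few for a call to be likely. None of 8 listed orphan or related genes, which include Sv2a, Sv2b, Sv2c and Svop, was called there either. Only 3 of these 8 genes had at least 10 reads in at least 2 libraries.

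Of 8 further uptake carriers of hepatocytes, 1 rose and 1 fell in knockout males in the authors' deposited table. Slco1a1, an uptake carrier of organic anions and bile acids, went from 169 ± 27.1 to 39.5 ± 25.2 FPKM in males (SD, n = 2), 4.34-fold lower in the authors' deposited table (edgeR adjusted p 2.04e-06), and Slc16a10, an aromatic amino acid transporter, was 1.997-fold higher there (edgeR adjusted p 0.000423). In knockout females 1 of the 8 rose in the authors' deposited table, Slc16a10, by 1.79-fold (edgeR adjusted p 0.0242), and 0 fell. Of 15 efflux carriers, 3 rose in knockout males (Abcc4, Abcb1a, Slc17a4) and 0 fell, while in knockout females Abcg2 rose and Abcb1b fell, in the authors' deposited table. Voom called 0 of the 7 uptake carriers it tested in either knockout comparison. Of the 13 efflux carriers it tested, voom called 0 in knockout males and 1 in knockout females.

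Of the cell type markers, Serpina1a (hepatocytes) and Spp1 (bile duct) were called in knockout against control males in the authors' deposited table. Summed FPKM of 11 listed hepatocyte markers was 18560 to 23110 in control males and 16690 to 17780 in knockout males, and Serpina1a was 1.88-fold lower by the authors' deposited table (edgeR adjusted p 0.0138). The sum of 5 bile duct markers was 2.75 to 6.85 FPKM in control and 28.9 to 37.7 in knockout males. That of the 4 markers other than Spp1 (osteopontin) was 0.614 to 0.906 FPKM in control and 0.572 to 0.735 in knockout males, so Spp1 made the difference in the sum. The sum of 5 listed macrophage markers was 19.02 to 20.1 FPKM in control and 28.6 to 29.1 in knockout males, with 0 of 5 called by the authors' edgeR test and 4 of 5 at an unadjusted p under 0.05. Endothelial sums were 24.2 to 26.04 FPKM in control and 23.2 to 29.0 in knockout males, and stellate cell sums 26.5 to 36.2 and 23.4 to 29.6, so both overlapped. In knockout against control females no listed marker was called in the authors' deposited table. Control and knockout female sums did not overlap for bile duct (5.12 to 5.62 and 6.15 to 9.32 FPKM), macrophage (24.7 to 26.02 and 26.2 to 31.8) and stellate cell markers (40.8 to 41.7 and 37.75 to 39.1). They overlapped for hepatocyte (20320 to 22610 and 18780 to 21800) and endothelial markers (27.6 to 30.9 and 29.6 to 32.15). Between the sexes, control females had higher sums than control males for macrophage (24.7 to 26.02 FPKM), endothelial (27.6 to 30.9 FPKM) and stellate cell markers (40.8 to 41.7 FPKM). Lrat of the stellate list was 1.73-fold lower in control males (edgeR adjusted p 0.0256) and 1.61-fold lower in knockout males (edgeR adjusted p 0.049) than in females of the same genotype, in the authors' deposited table. No marker of these liver cell lists that had reads was at 0 in a male library, other than 1 bile duct marker in the shallower control male library. Their part in the results was not tested, and in whole liver fewer cells of a type cannot be told apart from less RNA per cell.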

How the data were processed

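Liver RNA was sequenced in 8 libraries of 4 groups. TopHat2, featureCounts and edgeR are named, with mm9, in the submitters' processing notes, and no version, annotation or filter is given in the sources used here. Per the file headers, the authors deposited mean FPKM per group, expression ratios and edgeR p-values for 4 comparisons. Their adjusted p-value equalled a Benjamini-Hochberg adjustment over all 24197 genes within rounding. Calls reported first are theirs (adjusted p under 0.05).

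Each mean FPKM averages 2 libraries, so whole reads were solved from its decimals, within 1e-08 reads on top of rounding. All 18004 genes with reads were solved, 3257 at an annotated length of GENCODE M21 and 14747 at a length found by search. Of the members, Slc22a28 alone was solved at an annotated length. FPKM recomputed from the reads differed by at most 2.2e-11, which the solving itself required and which is therefore no separate check. Reads of a low gene may be understated by a common factor, with FPKM unaffected. Reads in genes ran from 2288033 to 11361272 per library. Alternatives were limma 3.58.1 (R 4.3.3) on log2(FPKM + 1), with a trend, and limma voom on the reads, both on 12980 genes with at least 10 reads in at least 2 libraries, with median-of-ratios scaling for voom and 4 residual degrees of freedom. Log2(FPKM + 1) understates changes of low genes.

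Coding sequences were aligned pairwise from GENCODE transcripts and promoters from RefSeq. Members and lists were chosen with earlier results of these data known. Beyond the members, the listed genes named are those called in any of the 4 comparisons, at most 6 per list, and the 3 genes most correlated with each member. The genes beside the block were named after their values were seen. Some genes that these rules name are not reported here.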

Additional observations from a re-analysis of the deposited data

Results flagged for a closer look

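Slc22a26 moved in opposite directions in the sexes. In the authors' deposited table its log2 ratio of knockout to control was 2.74 in males and -1.10 in females, and in each sex both knockout libraries lay on the same side of both control libraries. The difference between the sexes did not pass after adjustment, with an adjusted p of 0.258 by limma on log2(FPKM + 1) (log2 difference 2.198, SE 0.37) and 0.663 by limma voom (3.71, SE 0.90). The male values rest on 21 and 2 control reads.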

How the results depend on the processing

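Directions of the members held under nearly all alternatives, and calls did not. The authors' deposited table called 6, 4, 5 and 3 members in the male knockout, female knockout, control sex and knockout sex comparisons. Voom called 3, 0, 2 and 1, and limma on log2(FPKM + 1) called 0, 3 and 1 in the last 3 of these. At an unadjusted p under 0.05, a threshold added after seeing the data, voom passed 6, 5, 6 and 3, where 14.3%, 9.38%, 11.9% and 8.8% of genes passed. In females voom called 1 with library totals alone and 1 without the read filter, and in the knockout sex comparison 0 with only the groups compared. Library totals alone moved the median log2 change of all genes by 0.13 in females.

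Leaving out each library in turn, voom called 1 to 5 members in male knockouts (1 without either control male or the deeper knockout male library, 5 without the shallower knockout male library), 0 to 1 in female knockouts (1 without the shallower knockout female library), 0 to 3 between control sexes (0 without the deeper control female or deeper control male library, 1 without the shallower of either), and 1 to 2 between knockout sexes (2 without the deeper knockout male library). The interaction called 0 throughout. With a group left at 1 library, that library is assumed to vary like the other groups. The cause of these shifts was not tested.

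The Slc22a27 female knockout log2 ratio, not called, changed sign. It was -0.07 in the authors' deposited table and -0.08 by voom, 0.072 by limma, 0.060 by voom with library totals alone, and -0.24 to 0.14 over the left-out libraries (0.14 without the deeper control female, 0.02 without the shallower knockout female library). Control male levels of Slc22a26, Slc22a27 and Slc22a29 are limited by the shallow library, where 3 reads stand for 0.242, 0.225 and 0.219 FPKM. No paired analysis was possible because recovered libraries carry no pool number.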

Other observations

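Genes whose log2(FPKM + 1) was most like that of each member over the 8 libraries were listed among 9567 genes, as a description, since libraries of a group share their condition. Among the genes most like Slc22a26 were Hao2, a peroxisomal hydroxyacid oxidase, with a Pearson r of 0.986, and Abcd2, a peroxisomal fatty acid transporter. Hao2 had group means of 25.1 FPKM in control females, 20.1 in knockout females, 0.163 in control males and 2.83 in knockout males. Slc22a28 was followed by Rap2a, a small GTPase, by Hsd3b5, a 3-ketosteroid reductase, and by Cyp2f2, a cytochrome P450. Hsd3b5 was at 67.0 FPKM in control males, 5.76 in knockout males, 2.26 in control females and 1.004 in knockout females.

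Slc22a29 was most like Gas6, a ligand of TAM receptor kinases, Rcan2, a regulator of calcineurin, and Il1rn, the interleukin-1 receptor antagonist. Il1rn was at 0.414 and 1.76 FPKM in control and knockout females and at 0.175 and 2.12 FPKM in control and knockout males. Slc22a27 was nearest to Atp6v0d2, a proton pump subunit, Pcsk5, a proprotein convertase, and Cyp2a4, a cytochrome P450. Slc22a7 was nearest to Tmem8, Apopt1 and Slc27a2, a very long-chain acyl-CoA synthetase, and Slc22a30 to B630005N14Rik, Cadm4 and Hook3.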
